A study of Homo sapiens with 4 samples.

Results

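The transcripts described here come from 10 forkhead genes: FOXC1, FOXC2, FOXO1, FOXO3, FOXO4, FOXK1, FOXK2, FOXJ3, FOXP1 and FOXP4. They were taken by gene name from the 58735 genes of each library and belong to a set of 49 forkhead genes. The list was chosen by family with the FPKM of this comparison already known, so the members' differences are given as a description and without a test. The samples are RNA-seq libraries of 769-P cells, which derive from a human clear cell carcinoma of the kidney, in 2 groups of 2. One group was given doxycycline at 1 µg/ml for 4 days (labelled sh2) and the other was left untreated (control). Both groups carried the same stably transfected, doxycycline-inducible short hairpin RNA against USP35, a ubiquitin-specific protease, in an otherwise wild-type background under puromycin. Cells lacking the hairpin and given the drug were not analysed here, so effects of the drug and of the hairpin cannot be told apart.

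Forkhead proteins share a winged-helix domain that binds DNA at variants of a short A-rich core. FOXO proteins sit downstream of the PI3K-AKT pathway: AKT phosphorylates them, 14-3-3 proteins hold the phosphorylated form in the cytoplasm, and unphosphorylated FOXO activates genes of cell cycle arrest, stress resistance and autophagy. Transcript level therefore does not measure FOXO activity. FOXC proteins act in mesoderm, including the early kidney and blood vessels, FOXK proteins bring the BAP1 and SIN3 complexes to chromatin, and FOXP proteins are mostly repressors that work with NuRD and CTBP.

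The libraries held 17481827 and 18764546 reads with doxycycline and 16319640 and 17244546 reads in the controls. Levels are FPKM, fragment counts scaled to gene length and library size. A gene was kept for the test when its mean over the 4 libraries reached 1 FPKM, which 12029 genes did. A log2 difference is the doxycycline mean of log2(FPKM + 1) less the control mean, with the standard error of the limma fit. USP35 held 2.11 and 2.54 FPKM with doxycycline, against 3.31 and 4.19 FPKM in the controls, so the targeted transcript was lower in both doxycycline libraries (log2 difference -0.51 ± 0.20, limma adjusted p = 0.256). Of 13 renal epithelial and clear cell carcinoma markers 11 were kept. The list summed to 690.5 and 668.1 FPKM with doxycycline and 850.1 and 728.3 FPKM in the controls. VIM alone held 350.7 and 328.3 FPKM with doxycycline and 502.1 and 380.4 FPKM in the controls. The sum hides single genes: LHX1 was lower (6.48 and 5.26 against 25.6 and 27.3 FPKM) and CA12 higher (48.2 and 59.8 against 13.3 and 17.3 FPKM). Of other markers, 0 of 7 leukocyte, 0 of 6 fibroblast and 1 of 7 endothelial (EGFL7) were kept. Of 6 podocyte markers 3 were kept (PODXL, WT1 and SYNPO), and the 6 summed to 9.24 and 11.6 FPKM with doxycycline and 11.3 and 12.4 FPKM in the controls. Marker genes are named after their values were seen. CA9 and KRT19 of the renal list were near 0 in all 4 libraries, at 0.117 FPKM or less. The doxycycline libraries also differed from each other: mitochondrially encoded genes took 7.44% and 14.6% of their reads, against 8.21% and 8.50% in the controls. In bulk RNA, fewer cells of a type and less RNA per cell cannot be told apart. Whether replicates were separate cultures is not said in the labels, and p-values therefore speak only of the spread among these libraries.

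Among the 10 genes, FOXC2 was far lower with doxycycline, FOXP1 was moderately lower and FOXO4 was moderately higher, while most others stood near their control level. The ratio of means was 0.538 for FOXP1 and 1.79 for FOXO4. Members with both doxycycline libraries above both controls were FOXO3 and FOXO4 (2 of 10), against 24.3% of all genes kept. FOXC2, FOXP1 and FOXP4 (3 of 10) lay below both controls, against 28.9% of all genes kept. Among the 9 members that were kept themselves, 2 lay above and 2 below. These shares are near the background and nothing is read from them. The other 5 genes overlapped between the groups in FPKM. The log2 difference was smaller than 0.25 in size for 6 of the 10. Over all genes kept, the median log2 difference was -0.03 and the median standard error 0.22. The share of all genes with such small differences was not counted, so nothing particular to the members is read from this. The values of the 10 genes rest on 61 to 3748 reads per gene and library, and 9 of the 10 were kept for the test. FOXP1 missed the filter at a mean of 0.998 FPKM.

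**Figure D1:**
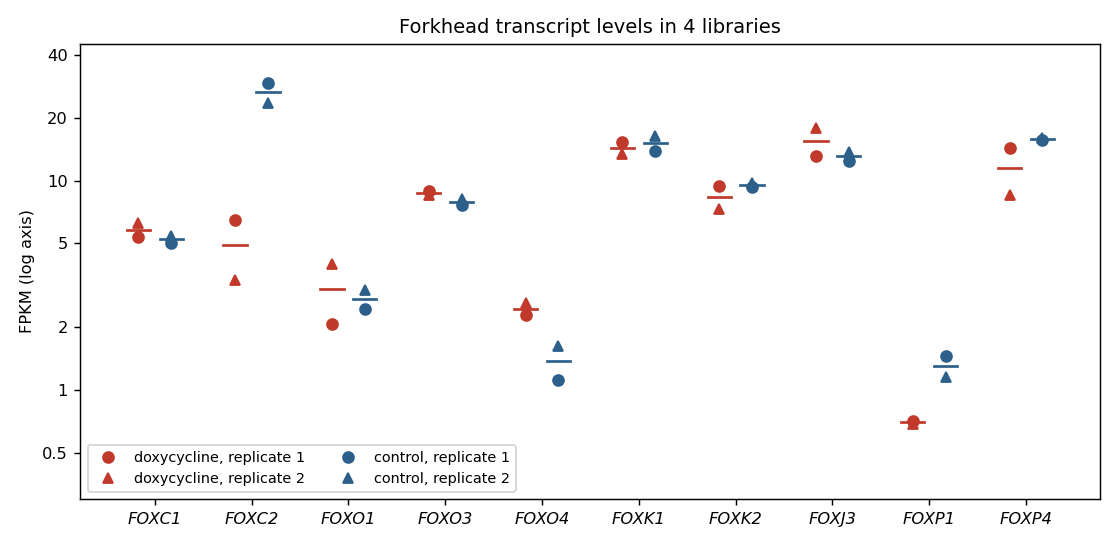
FPKM of the 10 forkhead genes in each library on a log axis, with doxycycline in red and control in blue; circles are replicate 1, triangles replicate 2 and bars the group means. FOXC2 shows the widest gap, with 6.48 and 3.35 FPKM with doxycycline against 29.4 and 23.6 FPKM in the controls.

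The order of levels differed between the groups mainly through FOXC2. In the doxycycline libraries FOXJ3 had the highest mean, followed by FOXK1, FOXP4, FOXO3, FOXK2, FOXC1, FOXC2, FOXO1, FOXO4 and FOXP1. Neighbours in that order overlapped over the 2 libraries, apart from FOXK2 above FOXC1 and FOXO4 above FOXP1. In the controls FOXC2 stood first, followed by FOXP4, FOXK1, FOXJ3, FOXK2, FOXO3, FOXC1, FOXO1, FOXO4 and FOXP1. There only FOXP4 and FOXK1, and FOXO4 and FOXP1, overlapped as neighbours. FOXC2 was thus rank 7 of 10 with doxycycline and rank 1 of 10 in the controls. Among all genes kept its mean stood at percentile 42.2 with doxycycline and 85.8 in the controls.

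FOXC2, a regulator of lymphatic, vascular and podocyte development, lies on GRCh38 chromosome 16 from 86566829 to 86569728 on the plus strand. It held 6.48 and 3.35 FPKM with doxycycline (353 and 178 reads), against 29.4 and 23.6 FPKM in the controls (1351 and 1190 reads). Both doxycycline libraries lay far below both controls, and replicate 2 was the lower of the pair. The exact Poisson 95% intervals, which cover counting error only, ran from 5.82 to 7.19 and from 2.88 to 3.88 FPKM with doxycycline, and from 27.8 to 31.0 and from 22.2 to 24.9 FPKM in the controls. Means were 4.91 ± 2.21 FPKM with doxycycline and 26.5 ± 4.10 FPKM in the controls (SD, n = 2 each), a 5.39-fold lower level. The log2 difference was -2.26 ± 0.30, and -1.87 and -2.65 for the doxycycline libraries taken singly.

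Its paralog FOXC1, a regulator of eye, heart and kidney development, did not share that difference. FOXC1 (chromosome 6, 1609972 to 1613897, plus strand) held 5.38 and 6.27 FPKM with doxycycline, against 5.03 and 5.43 FPKM in the controls. In FPKM the groups overlapped. Means were 5.83 ± 0.63 FPKM with doxycycline and 5.23 ± 0.28 FPKM in the controls (SD, n = 2 each). The log2 difference was 0.13 ± 0.18, and it was 0.20 by limma-voom and 0.32 after adjustment for length and GC content. FOXC1 had 397 and 451 reads with doxycycline and 313 and 371 reads in the controls. The overlap depends on the FPKM scale, whose library size was 107.5% of the reads of doxycycline replicate 1. Within a library, the FOXC2 to FOXC1 ratio of FPKM was 1.20 and 0.534 with doxycycline, against 5.84 and 4.34 in the controls. FOXC2 made up 54.6% and 34.8% of the FOXC FPKM with doxycycline, and 85.4% and 81.3% in the controls. On this per-length scale neither paralog dominated in the doxycycline libraries, whereas FOXC2 dominated in both controls.

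FOXC2 overlaps an antisense gene, FOXC2-AS1. Of the 50-base words in FOXC2, 3.47% occur in another gene, nearly all of them in FOXC2-AS1. The antisense gene shares 145 exonic bases with FOXC2, and strandedness is not given in the sources used here, so reads of that stretch cannot be assigned by strand. FOXC2-AS1 itself had 1 and 10 reads with doxycycline and 10 and 6 reads in the controls, small beside the reads of FOXC2.

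Genes next to the FOXC pair were low or differed less from their controls than FOXC2 did. GMDS, an enzyme of GDP-fucose synthesis beside FOXC1, held 3.93 and 3.11 FPKM with doxycycline and 4.67 and 4.12 FPKM in the controls (log2 difference -0.26 ± 0.19, limma adjusted p = 0.496). MTHFSD, beside FOXC2, held 3.63 and 2.76 FPKM with doxycycline and 3.12 and 3.27 FPKM in the controls (log2 difference -0.01 ± 0.19, limma adjusted p = 0.986). FOXL1, another forkhead gene of the FOXC2 cluster, stood below the filter at 0.327 and 0.438 FPKM with doxycycline and 0.657 and 0.706 FPKM in the controls. GMDS and FOXL1 thus lay below both controls in both doxycycline libraries, FOXL1 with a ratio of means of 0.561, and MTHFSD overlapped. FOXF1 had 0 to 2 reads per library, FOXF2 1 to 11 and FOXCUT 0 to 3. FOXQ1, FENDRR and IRF8 had 0 reads in all 4 libraries. Among its neighbours, FOXC2 was thus the transcript with a sizeable level and a wide gap.

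Textbook FOXC targets gave little to compare, since 2 of 11 were kept. ITGB3, an integrin subunit, held 3.75 and 1.94 FPKM with doxycycline, against 5.06 and 5.50 FPKM in the controls (log2 difference -0.75 ± 0.26, limma adjusted p = 0.225). PRICKLE1, a planar polarity protein, held 1.81 and 1.33 FPKM with doxycycline and 1.47 and 1.57 FPKM in the controls (log2 difference 0.02 ± 0.21, limma adjusted p = 0.967). Neither passed the test. Among the other 9, named after its values were seen, EFNB2, the ligand ephrin-B2 of arterial cells, held 0.456 and 0.642 FPKM with doxycycline (43 and 59 reads), against 1.16 and 1.26 FPKM in the controls (92 and 110 reads). It was below both controls in both doxycycline libraries and outside the test, since its mean missed the filter.

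The protein-coding genes with the profile most like FOXC2 over the 4 libraries were MYBL2, H2AFX and UHRF1, by Euclidean distance of centred log2(FPKM + 1) values. The distances were 0.200, 0.242 and 0.245, and 3 of 10227 genes lay within 0.25. MYBL2 held 25.2 and 15.9 FPKM with doxycycline, against 96.5 and 88.3 FPKM in the controls. UHRF1 held 4.25 and 2.75 FPKM with doxycycline, against 22.2 and 20.03 FPKM in the controls. As in FOXC2, doxycycline replicate 2 was the lower of its pair in all 3. These genes were picked for closeness to the FOXC2 profile, so the likeness follows largely from the choice. In a list of 20 mitosis and replication genes, 20 of 20 lay below both controls in both doxycycline libraries, beside 28.9% of all genes kept. The list summed to 387.2 and 381.7 FPKM with doxycycline and 1068 and 932.1 FPKM in the controls. Its part in the FOXC2 difference was not tested.

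The 3 FOXO genes differed in level and in how they stood between the groups. FOXO4 was the member with the highest positive difference, FOXO3 was the most abundant, and FOXO1 was spread widely between the doxycycline libraries. FOXO4 (X chromosome, 71096197 to 71103535, plus strand) held 2.28 and 2.60 FPKM with doxycycline (148 and 164 reads), against 1.12 and 1.62 FPKM in the controls (61 and 97 reads). Both doxycycline libraries lay above both controls. The exact Poisson 95% interval of doxycycline replicate 1, from 1.93 to 2.68 FPKM, overlapped that of control replicate 2, from 1.31 to 1.97 FPKM. Means were 2.44 ± 0.22 FPKM with doxycycline and 1.37 ± 0.35 FPKM in the controls (SD, n = 2 each), a ratio of 1.79. The log2 difference was 0.55 ± 0.21.

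FOXO3 (chromosome 6, 108559835 to 108684774, plus strand) held 8.88 and 8.51 FPKM with doxycycline, against 7.60 and 8.20 FPKM in the controls. Both doxycycline libraries were higher by a small margin, with a ratio of means of 1.10 and a log2 difference of 0.12 ± 0.17, smaller than its standard error. FOXO1 (chromosome 13, 40469953 to 40666597, minus strand) held 2.06 and 4.00 FPKM with doxycycline, against 2.42 and 2.99 FPKM in the controls. The doxycycline libraries lay on either side of both controls, with differences of -0.27 and 0.44 singly and 0.08 ± 0.28 together. FOXO6, the remaining FOXO gene, named after its values were seen, stayed below the filter at 0.155 and 0.319 FPKM with doxycycline and 0.421 and 0.216 FPKM in the controls.

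Within the FOXO family, FOXO4 took a larger part of the total with doxycycline. Its share of the summed FOXO1, FOXO3 and FOXO4 FPKM was 17.3% and 17.2% with doxycycline, against 10.0% and 12.6% in the controls. The FOXO4 to FOXO3 ratio was 0.257 and 0.305 with doxycycline, against 0.147 and 0.197 in the controls, with no overlap. The FOXO1 to FOXO3 ratio overlapped, at 0.232 and 0.469 with doxycycline and 0.318 and 0.365 in the controls. FOXO3 was the main FOXO transcript in every library, at 67.2% and 56.4% with doxycycline and 68.3% and 64.0% in the controls. The summed FOXO level was 13.2 and 15.1 FPKM with doxycycline and 11.1 and 12.8 FPKM in the controls.

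**Figure D2:**
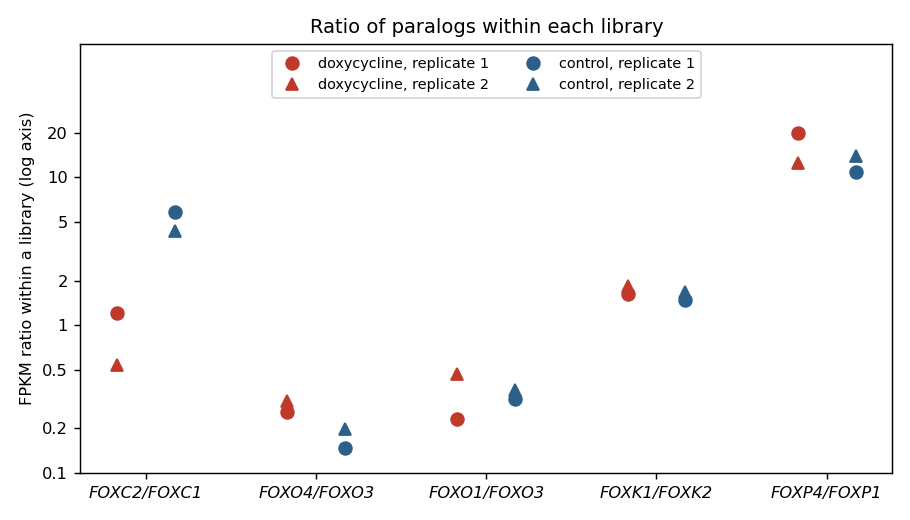
Ratio of FPKM between paralogs within each library on a log axis, with doxycycline in red and control in blue; circles are replicate 1 and triangles replicate 2. FOXC2 to FOXC1 and FOXO4 to FOXO3 do not overlap between the groups, and FOXO1 to FOXO3, FOXK1 to FOXK2 and FOXP4 to FOXP1 do.

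Part of FOXO3 cannot be told from its copies. Of its 50-base words 27.8% occur in another gene, led by the processed pseudogene FOXO3B with 15.7% and AC026271.3 with 10.9%. FOXO3B had 14 and 6 reads with doxycycline and 7 and 15 reads in the controls, against 931 to 1289 reads of FOXO3, and how reads with several matches were counted is not given in the sources used here. FOXO4 has no 50-base word in any other gene. Between the FOXO genes the longest identical runs are short, and they are shown because they mark where the forkhead domains are most alike at the level of the transcript.
FOXO1 and FOXO3: gcgtgccctacttcaaggataaggg
FOXO3 and FOXO4: cccagatctacgagtggatggt
FOXO1 and FOXO4: cagatctacgagtggatggtc
These runs have 25, 22 and 21 bases, and are thus shorter than a 50-base word.

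FOXO proteins bind GTAAACA and close relatives, and forkhead genes can carry such cores themselves. The windows searched were RefSeq promoters on GRCh38.p14, from 250 bases before to 50 bases after each annotated start, and 9 of the 10 genes matched with 19 windows. FOXC2 had no match. GTAAACA or ATAAACA, on either strand, occurred in 3 of the 19, against 7.43% of 35116 promoter windows of the same length (3.42% for GTAAACA and 4.24% for ATAAACA). The 3 windows that held a core are shown, with the core or its reverse complement in capitals and each written along its gene.
FOXO4, chrX:71095601-71095900, plus strand: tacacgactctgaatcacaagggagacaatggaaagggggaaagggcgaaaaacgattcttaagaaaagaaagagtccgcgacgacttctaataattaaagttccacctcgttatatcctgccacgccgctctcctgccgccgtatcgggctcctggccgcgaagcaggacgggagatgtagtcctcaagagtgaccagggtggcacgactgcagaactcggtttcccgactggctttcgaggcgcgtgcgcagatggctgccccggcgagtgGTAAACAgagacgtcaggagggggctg
FOXO3, chr6:108560667-108560966, plus strand: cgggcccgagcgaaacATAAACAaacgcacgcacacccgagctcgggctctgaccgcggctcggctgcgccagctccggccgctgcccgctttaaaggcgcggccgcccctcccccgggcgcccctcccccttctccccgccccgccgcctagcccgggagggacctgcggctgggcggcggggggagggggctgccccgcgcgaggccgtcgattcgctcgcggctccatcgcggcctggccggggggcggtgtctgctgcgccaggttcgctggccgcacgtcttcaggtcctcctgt
FOXP1, chr3:71245028-71245327, minus strand: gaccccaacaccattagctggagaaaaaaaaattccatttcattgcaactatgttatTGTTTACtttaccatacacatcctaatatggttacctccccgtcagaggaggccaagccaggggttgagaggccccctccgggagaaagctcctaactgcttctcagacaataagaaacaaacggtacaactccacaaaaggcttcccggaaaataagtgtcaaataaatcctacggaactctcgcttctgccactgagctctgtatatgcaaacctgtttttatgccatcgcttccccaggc
The FOXO4 window is its single one, with GTAAACA starting at base 274, downstream of the RefSeq start. In FOXO3, ATAAACA starts at base 17 of 1 of 4 windows, and in FOXP1 the reverse complement of GTAAACA starts at base 58 of 1 of 6 windows. A match is a description of these letters and not a binding site. The windows of FOXP4, FOXC1, FOXO1, FOXK1, FOXK2 and FOXJ3 held neither core.

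Textbook FOXO target genes stood higher with doxycycline more often than lower. Of 30 kept, 16 (53.3%) lay above both controls in both doxycycline libraries and 1 (3.33%) below, against 24.3% and 28.9% of all genes kept. At an unadjusted limma p under 0.05 there were 9 higher and 1 lower, against 6.47% and 11.9% of all genes, and 0 passed an adjusted p of 0.05. Over all genes kept 0 (0.0%) passed, with 2204 (18.3%) under an unadjusted limma p of 0.05 and 0 past by limma-voom. Fits without 1 doxycycline library take the spread from the 2 controls alone and assume that the lone library varies like them, as do all such fits below. Without doxycycline replicate 1, 13 targets passed higher and 6 lower, beside 12.9% and 19.9% of all genes. Without doxycycline replicate 2, 11 passed higher and 1 lower, beside 4.95% and 8.39% of all genes. The median log2 difference was 0.36 (0.22 with a filter of 5 FPKM), and 0.32 and 0.46 for the doxycycline libraries singly, against -0.03 over all genes. The list was written with earlier results of these data known, so the excess is not independent evidence. Several members, such as CDKN1A, SESN1, GADD45A and BBC3, are also textbook targets of p53 and are named after their values were seen.

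DEPP1, an autophagy-linked FOXO target, held 5.27 and 9.35 FPKM with doxycycline, against 1.21 and 1.23 FPKM in the controls (log2 difference 1.86 ± 0.27, limma adjusted p = 0.0573). MXI1, a MYC antagonist, held 10.8 and 13.6 FPKM with doxycycline, against 3.91 and 5.04 FPKM in the controls (log2 difference 1.27 ± 0.21, limma adjusted p = 0.0686). TNFSF10, the death ligand TRAIL, held 25.9 and 38.03 FPKM with doxycycline, against 8.84 and 12.7 FPKM in the controls (log2 difference 1.48 ± 0.28, limma adjusted p = 0.0772). All 3 were higher in both doxycycline libraries and missed the adjusted threshold. TNFSF10 is also induced by interferon. Of 18 interferon response genes kept, 14 lay above both controls in both doxycycline libraries, beside 24.3% of all genes kept. The whole list summed to 1860 and 197.4 FPKM with doxycycline and 120.6 and 124.0 FPKM in the controls. That sum was far higher in doxycycline replicate 1 while TNFSF10 was higher in replicate 2, and the part of the interferon genes in its level was not tested.

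Other targets, named after their values were seen, split between the doxycycline libraries. KLF4, a zinc-finger factor, held 15.5 and 2.25 FPKM with doxycycline and 6.70 and 5.52 FPKM in the controls. BBC3, the cell death gene PUMA, held 15.5 and 4.50 FPKM with doxycycline and 9.59 and 8.67 FPKM in the controls. ERBB3, a receptor known to be raised when AKT is inhibited, went the other way, with 0.494 and 9.57 FPKM with doxycycline and 0.502 and 1.10 FPKM in the controls. The cell cycle inhibitor CDKN1A was even, at 287.5 and 278.6 FPKM with doxycycline and 137.5 and 126.4 FPKM in the controls. CDKN1B, another FOXO-linked inhibitor of the same family, showed no such gap, at 17.2 and 15.7 FPKM with doxycycline and 16.4 and 16.0 FPKM in the controls. Of the 30 kept, 1 gene lay below the controls in both doxycycline libraries, the mitophagy gene BNIP3, at 6.24 and 7.52 FPKM with doxycycline and 11.9 and 10.8 FPKM in the controls.

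**Figure D3:**
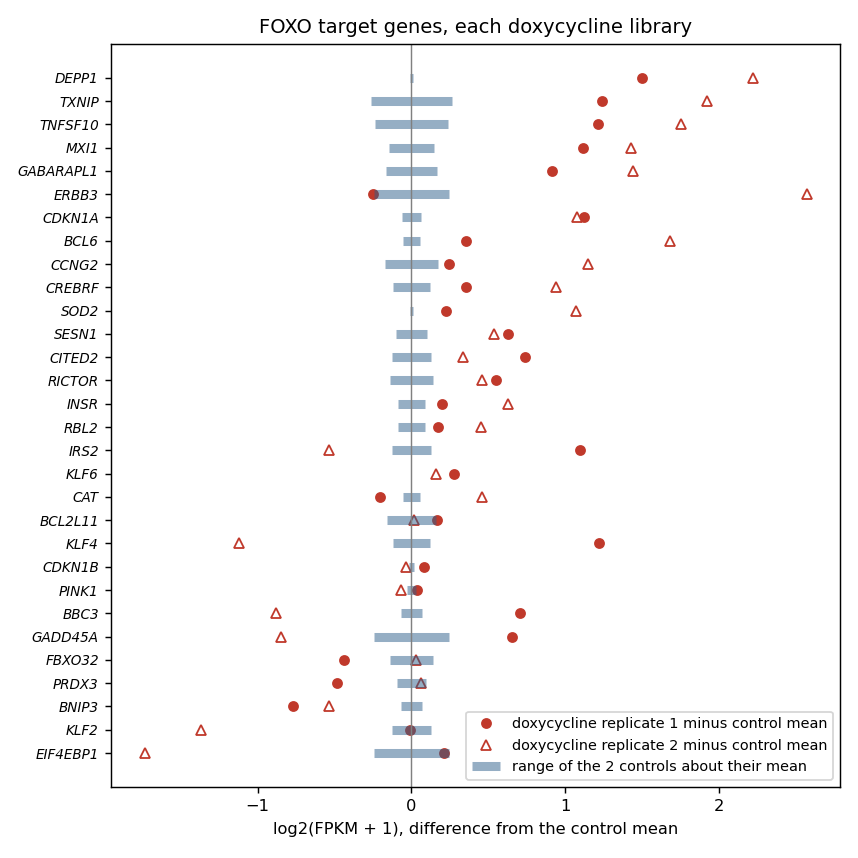
Difference of each doxycycline library from the control mean, in log2(FPKM + 1), for the 30 FOXO target genes kept; filled circles are doxycycline replicate 1, open triangles replicate 2 and blue bars the range of the 2 controls. DEPP1, TXNIP, TNFSF10, MXI1 and GABARAPL1 lie above the controls in both libraries, while KLF4 and BBC3 lie above in replicate 1 and below in replicate 2; TXNIP and GABARAPL1 are named after their values were seen.

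Genes that regulate FOXO proteins were divided. Of 30 kept, 6 lay above both controls in both doxycycline libraries and 9 below, beside 24.3% and 28.9% of all genes, with a median log2 difference of -0.03. SFN, the 14-3-3 sigma protein, held 38.8 and 31.4 FPKM with doxycycline, against 92.7 and 72.7 FPKM in the controls (log2 difference -1.21 ± 0.24, limma adjusted p = 0.0851). MDM2, a ubiquitin ligase of p53 that also acts on FOXO, held 17.02 and 21.5 FPKM with doxycycline, against 10.7 and 11.0 FPKM in the controls (log2 difference 0.77 ± 0.20, limma adjusted p = 0.150). SKP2, a ubiquitin ligase subunit that acts on FOXO1, held 8.66 and 7.76 FPKM with doxycycline, against 12.9 and 12.3 FPKM in the controls (log2 difference -0.56 ± 0.18, limma adjusted p = 0.196). SFN and SKP2 were lower and MDM2 higher in both libraries, and 0 of the 30 passed the adjusted threshold over all 4 libraries. Without doxycycline replicate 1, 8 of 30 passed, beside 32.8% of all genes, and without replicate 2, 3 of 30 passed, beside 13.3% of all genes. The kinases AKT1 and AKT2, named after their values were seen, gave log2 differences of -0.41 ± 0.20 for AKT1 and -0.52 ± 0.18 for AKT2.

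FOXK1 and FOXK2 were expressed at steady levels, and both groups overlapped. FOXK1, which carries a phosphopeptide-binding FHA domain beside the forkhead domain and represses autophagy genes, lies on chromosome 7 from 4682309 to 4771443 on the plus strand. It held 15.2 and 13.5 FPKM with doxycycline, against 13.9 and 16.3 FPKM in the controls (log2 difference -0.07 ± 0.20). FOXK2, its paralog (chromosome 17, 82519713 to 82644662, plus strand), held 9.38 and 7.30 FPKM with doxycycline, against 9.32 and 9.74 FPKM in the controls (log2 difference -0.18 ± 0.20). Replicate 2 was the lower doxycycline library for both. The FOXK1 to FOXK2 ratio stayed within 1.49 to 1.84 over the 4 libraries, at 1.62 and 1.84 with doxycycline and 1.49 and 1.67 in the controls. As a fold range, highest over lowest, this was the narrowest of the 5 ratios compared.

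The longest identical run of the FOXK pair has 36 bases. It is shown because it encodes part of the FHA domain, the feature that sets the FOXK proteins apart from the other members.
FOXK1 and FOXK2: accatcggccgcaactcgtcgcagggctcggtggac
Of the 50-base words in FOXK2, 12.4% occur in another gene, led by the overlapping AC124283.1 with 11.1%, which had 0 reads in all 4 libraries. FOXK2 also shares 53 exonic bases with WDR45B, which had 2002 and 2142 reads with doxycycline and 2168 and 2071 in the controls, so some reads at that end could belong to either gene.

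Among 14 FOXK partners kept, 2 (14.3%) lay above both controls in both doxycycline libraries and 6 (42.9%) below, against 24.3% and 28.9% of all genes. By limma 0 passed the adjusted threshold, and 1 was lower at an unadjusted p under 0.05, as were 11.9% of all genes. Without doxycycline replicate 1, 5 of 14 passed, beside 32.8% of all genes. The median log2 difference was -0.14, and it was 0.00 after adjustment for length and GC content, -0.31 without doxycycline replicate 1 and -0.06 without replicate 2. HDAC1, the deacetylase of the SIN3 complex, held 39.9 and 33.9 FPKM with doxycycline, against 58.0 and 52.3 FPKM in the controls (log2 difference -0.57 ± 0.21, limma adjusted p = 0.247). HCFC1, a partner of BAP1, held 20.3 and 13.1 FPKM with doxycycline, against 22.5 and 27.6 FPKM in the controls (log2 difference -0.58 ± 0.27, limma adjusted p = 0.312). SUDS3, a SIN3 subunit, stood higher, at 10.6 and 16.5 FPKM with doxycycline against 8.70 and 9.48 FPKM in the controls (log2 difference 0.50 ± 0.25, limma adjusted p = 0.338).

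FOXJ3, a forkhead factor studied in muscle and in male germ cells of mice, had the highest mean of the 10 genes with doxycycline. FOXJ3 (chromosome 1, 42176539 to 42335877, minus strand) held 13.1 and 17.9 FPKM with doxycycline, against 12.4 and 13.7 FPKM in the controls. In FPKM, replicate 1 lay at the control mean and replicate 2 above both controls, giving a log2 difference of 0.21 ± 0.22 and an overlap of the groups. FOXJ3 had 1692 and 2254 reads with doxycycline and 1358 and 1648 reads in the controls. As for FOXC1, the overlap depends on the FPKM scale, and the log2 difference was 0.28 by limma-voom.

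In FPKM, both FOXP genes were lower in both doxycycline libraries, FOXP1 evenly and FOXP4 mostly through 1 library. FOXP1, a repressor needed in B cell, lung and heart development, lies on chromosome 3 from 70952817 to 71583993 on the minus strand. It held 0.711 and 0.684 FPKM with doxycycline (491 and 460 reads), against 1.44 and 1.15 FPKM in the controls (841 and 736 reads), so the groups were apart and the doxycycline libraries were close together. Means were 0.698 ± 0.02 FPKM with doxycycline and 1.30 ± 0.21 FPKM in the controls (SD, n = 2 each), a ratio of 0.538 and a log2 difference of -0.43 ± 0.20 from a fit without the filter. The FPKM of FOXP1 is per 36714 bases, the union of the exons of 76 transcripts, whereas its longest coding transcript has 8994 bases. Which transcripts these cells use was not tested, so the place of FOXP1 in the order of levels is tied to that length.

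FOXP4, a partner of FOXP1 in heterodimers (chromosome 6, 41546426 to 41602384, plus strand), held 14.3 and 8.53 FPKM with doxycycline, against 15.6 and 16.1 FPKM in the controls. Replicate 1 lay just below the controls and replicate 2 far below, with differences of -0.14 and -0.82 singly. FOXP4 had 1661 and 964 reads with doxycycline and 1531 and 1725 reads in the controls. The small margin of replicate 1 depends on the FPKM scale, whose library size was 107.5% of the reads of that library. Means were 11.4 ± 4.09 FPKM with doxycycline and 15.8 ± 0.29 FPKM in the controls (SD, n = 2 each), with a log2 difference of -0.48 ± 0.27. The FOXP4 to FOXP1 ratio was 20.1 and 12.5 with doxycycline and 10.8 and 13.9 in the controls, with overlap.

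FOXP partners stood mostly below the controls. Of 8 kept, 1 (12.5%) lay above both controls in both doxycycline libraries and 7 (87.5%) below, against 24.3% and 28.9% of all genes, and 4 were lower at an unadjusted limma p under 0.05, as were 11.9% of all genes, with 0 past the adjusted threshold. Without doxycycline replicate 1, 5 of 8 passed, all lower, beside 19.9% of all genes, and without replicate 2, 1 of 8 passed, also lower, beside 8.39% of all genes. The median log2 difference was -0.41, and it was -0.25 after adjustment for length and GC content. CHD3, a NuRD remodeller, held 15.9 and 17.8 FPKM with doxycycline, against 26.7 and 30.6 FPKM in the controls (log2 difference -0.73 ± 0.20, limma adjusted p = 0.158). GATAD2A, a scaffold of the same complex, held 14.1 and 12.2 FPKM with doxycycline, against 20.03 and 20.3 FPKM in the controls (log2 difference -0.58 ± 0.19, limma adjusted p = 0.204). The exception above the controls was GATAD2B, the paralog of GATAD2A, at 6.57 and 6.74 FPKM with doxycycline and 5.84 and 6.38 FPKM in the controls, named after its values were seen.

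The genes nearest in profile to FOXO4, the kept member with the highest positive difference, were EIF4G3, CSNK2A3 and BSDC1, at distances of 0.0414, 0.0638 and 0.0652. Within a distance of 0.25 lay 295 of 10227 protein-coding genes. A distance on this scale depends on the size of the difference, so this count is not comparable with that of FOXC2.

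The doxycycline libraries differed in how levels went with GC content. Across 12024 genes, the level relative to the gene mean had slopes of 0.07 and -0.25 log2 units per 10% of GC with doxycycline, and of 0.09 and 0.09 in the controls, so doxycycline replicate 2 stood apart. FOXC2 and FOXP4, the members with the highest GC content (63.2% and 62.9% of the longest transcript), were also those lowest in replicate 2 relative to replicate 1, by -0.78 and -0.68 on the log2 scale. FOXO1 and FOXJ3, at 46.4% and 42.2% GC, were higher in replicate 2 by 0.71 and 0.42. The others did not line up as closely: FOXP1, lowest in GC at 40.3%, differed by -0.02, FOXO3 at 49.1% by -0.05 and FOXC1 at 56.3% by 0.19. After an adjustment of each library for length and GC content, chosen after seeing the data, FOXC2 stood at -1.91, FOXO4 at 0.72 and FOXP1 at -0.51, while FOXP4 stood at -0.13 and FOXK1 changed sign, to 0.15. FOXC2 was thus still far lower under this adjustment, and FOXP4 stood near its control level.

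**Figure D4:**
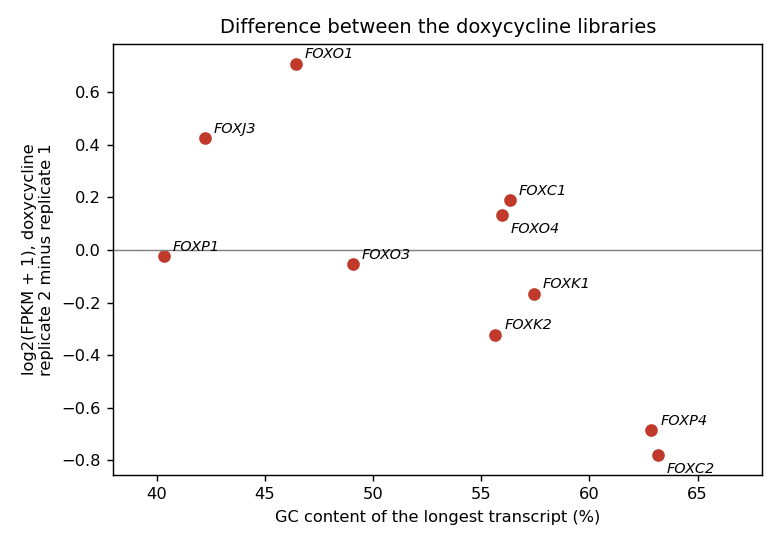
Doxycycline replicate 2 minus replicate 1, in log2(FPKM + 1), against the GC content of the longest transcript in percent, with 1 point for each of the 10 forkhead genes. FOXC2 and FOXP4 sit lowest at the highest GC content, and FOXO1 and FOXJ3 sit highest at 46.4% and 42.2% GC.

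**Figure D5:**
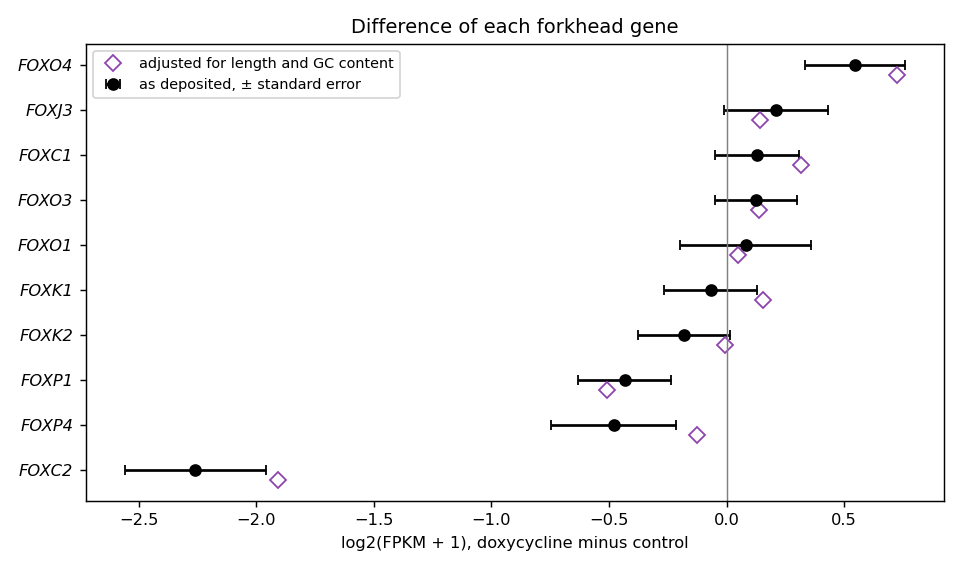
Doxycycline minus control in log2(FPKM + 1) for each forkhead gene; filled circles with bars are the deposited values with the standard error of the fit, and open diamonds are the values adjusted for length and GC content. FOXC2 stays below -1.5 either way, FOXP4 moves close to 0 and FOXK1 changes sign.

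Outside the 10 genes, 6 of the other 39 forkhead genes were kept and 13 had 0 reads in all 4 libraries. The kept ones gave 0 above and 3 below both controls in both doxycycline libraries, against 24.3% and 28.9% of all genes. The median log2 difference of these 6 was -0.29, and it was -0.13 once length and GC content were adjusted for. It was -0.83 with a filter of 5 FPKM, which left 2 genes (FOXM1 and FOXJ2), and -0.03 over 26 genes without a filter. FOXJ2, named after its values were seen, gave a log2 difference of -0.17. FOXM1, the forkhead activator of mitotic genes, held 9.66 and 8.25 FPKM with doxycycline, against 25.4 and 28.7 FPKM in the controls (log2 difference -1.49 ± 0.20, limma adjusted p = 0.0573). The mitosis and replication genes above were lower beside it, and their relation to FOXM1 was not tested. Of these 6 genes, 2 passed without doxycycline replicate 1, both lower, beside 19.9% of all genes, and 1 passed without replicate 2, also lower, beside 8.39%. FOXD1, a factor of the kidney stroma, held 3.65 and 1.46 FPKM with doxycycline and 4.52 and 3.63 FPKM in the controls (log2 difference -0.58 ± 0.33, limma adjusted p = 0.389). FOXD2 held 0.876 and 0.584 FPKM with doxycycline, against 1.05 and 1.54 FPKM in the controls (log2 difference -0.40 ± 0.24, limma adjusted p = 0.419). After adjustment for length and GC content the differences of FOXD1 and FOXD2 were -0.17 and -0.01. The 10 genes made up 72.9% and 73.3% of the summed forkhead FPKM with doxycycline, and 67.4% and 65.9% in the controls. That sum was itself lower with doxycycline, at 106.6 and 99.0 FPKM against 145.8 and 149.9 FPKM in the controls. The larger share is thus not a higher level.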

How the data were processed

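RNA-seq tables of 4 libraries were used, 2 with doxycycline and 2 controls, grouped and numbered by their labels. Values are FPKM as deposited by the authors, per the file headers. The submitters' processing notes list limma, featureCounts 1.5.0-p3 and HISAT2 2.0.5 without saying what each did. Build, strandedness and filters are not given in the sources used here. Gene coordinates matched GENCODE release 29 (GRCh38) for all 58735. FPKM times gene length gave whole reads after division by each library's smallest step (100.0% of values within 0.02 reads). The library size implied by these steps was 107.5% and 97.6% of the recovered reads with doxycycline. In the controls it was 97.2% and 101.0%. For a gene of 2 kb, 3 reads correspond to 0.0798 to 0.0945 FPKM.

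Genes averaging 1 FPKM or more were tested with limma-trend (limma 3.58.1, R 4.3.3) on log2(FPKM + 1), two-sided, with Benjamini-Hochberg adjustment over 12029 genes, threshold 0.05 and 2 residual degrees of freedom. The scale understates changes of low genes. An exact permutation test of 2 against 2 libraries cannot go below p = 0.333. Fold changes are ratios of mean FPKM. Steps were tested on simulated data. Members and lists were chosen with earlier results of these data known. Named genes are the 10 members, USP35, the FOXC neighbours, the 3 genes of lowest unadjusted p in each of 6 lists (except 1 gene that is not reported here), and the 3 nearest in profile to the members of highest and lowest difference; any other gene is said to be chosen after its values were seen. Alternatives are in the closing section. Sequences came from RefSeq promoters (GRCh38.p14) and GENCODE transcripts. Tables were handled with Python 3.11.15 and pandas 2.3.3.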

Additional observations from a re-analysis of the deposited data

How the results depend on the processing

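With 2 libraries per group, counting error, culture and library preparation cannot be separated. The count of genes past the threshold depended on the setting. Adjusted for length and GC content it was 306 over all genes (54 higher, 252 lower), 1 for other forkhead genes (FOXM1) and 2 for FOXO targets. With the filter raised to a mean of 5 FPKM it was 261 over all genes, 1 for other forkhead genes, 3 for FOXO targets and 1 for FOXO regulators. With the replicate number as a block it was 784 over all genes (202 higher, 582 lower), 1, 6 and 1 for the same lists. The numbers are not shown to pair the libraries: replicate deviations correlated at r = 0.21 across genes, over 2 pairs.

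Leaving out 1 library each gave 0 to 3942 of all genes, 0 to 2 other forkhead genes, 0 to 19 FOXO targets, 0 to 8 FOXO regulators, 0 to 5 FOXK partners, 0 to 5 FOXP partners and 0 to 1 FOXC targets. Without either control every one of these counts was 0, as were those of FOXK partners and FOXC targets without doxycycline replicate 2. The highest came without doxycycline replicate 1, and 1605 genes, 12 FOXO targets (11 higher) and 3 FOXO regulators came without doxycycline replicate 2. Without doxycycline replicate 1 the 19 FOXO targets split into 13 higher and 6 lower. No trend, limma-voom on recovered reads, median-of-ratios factors, no filter, a pseudocount of 0.1, quantile normalization and removal of mitochondrial genes each left 0.

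Members above both controls numbered 4 with the GC adjustment and 4 with limma-voom, and 2 to 5 with 1 library left out. Members below numbered 1 of 9 with quantile normalization, 2 with limma-voom, and 3 to 5 with 1 library left out. The shares of all genes in these settings are not given, and groups separate more easily with 1 library left out. Nothing is therefore read from these counts. Over all settings run, the log2 difference ranged from -2.65 to -1.87 for FOXC2, 0.39 to 0.90 for FOXO4, -0.84 to -0.34 for FOXP1 (no value under quantile normalization) and -0.82 to -0.13 for FOXP4. The sign changed for FOXK1 in 4 of 14 alternatives, FOXO1 in 2 and FOXJ3 in 1. The median of FOXO targets ran from 0.22 to 0.50. The cause of these movements was not tested.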
